A study of Mus musculus with 4 samples.

Results

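Genes of cholesterol and fatty acid synthesis were followed in mouse melanoma tumours in which an inducible NRAS, a small GTPase upstream of the RAF, MEK and ERK kinases, was switched off. The set was a list of 34 gene symbols matched to the platform annotation. Of these, 33 were measured, out of 18193 genes with a probe set of their own, and the expression of Acat2 was not analysed here. A gene is represented by its brightest probe set, a group of short probes on the array that reads 1 transcript region. The 33 were sorted by role into 5 regulators, 7 mevalonate and isoprenoid enzymes, 11 squalene and sterol enzymes, the sterol carrier Stard4, 4 genes of acetyl-CoA supply and fatty acid synthesis, and 5 of elongation and desaturation.

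The tumours were grown from iNRAS-475, a single mouse melanoma line, injected into the skin of nude mice, which lack a thymus and therefore most T cells. All mice drank doxycycline at 2 mg/ml while the tumours grew for 6 weeks to between 200 and 500 mm3, so all 4 tumours share the line, the host and growth on the drug. The control array came from a tumour still on doxycycline, and 3 further arrays, 1 per time, from tumours 24, 48 and 72 h off the drug. No condition was replicated: animal, tumour piece and condition cannot be told apart, and a difference between 2 arrays has no replicate error and no test. The labels do not give the promoter that drives the transgene, its sequence, or whether animals were pooled.

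Cells make cholesterol from acetyl-CoA through mevalonate, isoprenoid diphosphates, squalene and lanosterol, and make fatty acids from the same acetyl-CoA through malonyl-CoA. The genes of both routes are switched on by SREBP transcription factors, which are held in the endoplasmic reticulum by SCAP and INSIG proteins when sterols are abundant and are cut free in the Golgi when sterols are scarce. Growth factor signalling is known to raise SREBP activity in many tumour cells, and isoprenoids made by the same route anchor RAS proteins to membranes.

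Promoter sequences were matched by symbol for 27 of the 34 members, from a RefSeq table with 300 bases per transcription start (250 before it and 50 after), build GRCm38.p6; Fdps, Fdft1, Sqle, Scd1, Scd2, Fads1 and Stard4 were not analysed here. SREBPs act at promoters together with NF-Y, which binds CCAAT, and Sp1, which binds GGGCGG. Shown are the 200 bases before the start of 5 members that were among the lowest at 72 h (Msmo1, Idi1, Hsd17b7, Cyp51 and Elovl6), of Hmgcs1, the only one of these 27 with the core letters of the classical sterol regulatory element, TCACNCCAC, and of the regulator Insig1. Capitals mark a match on either strand to any of these 3 motifs or to the E-box, CACGTG; no matches overlapped in these 7 stretches. The stretches are chr8:64733579-64733778 on the minus strand, chr13:8885406-8885605 on the plus strand, chr1:169969206-169969405 on the minus strand, chr5:4104698-4104897 on the minus strand, chr3:129532186-129532385 on the plus strand, chr13:119690151-119690350 on the plus strand and chr5:28071212-28071411 on the plus strand.
Msmo1: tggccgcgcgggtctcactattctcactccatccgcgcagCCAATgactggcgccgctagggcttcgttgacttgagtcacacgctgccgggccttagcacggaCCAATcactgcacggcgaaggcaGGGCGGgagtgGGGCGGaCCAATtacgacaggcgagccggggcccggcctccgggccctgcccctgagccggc
Idi1: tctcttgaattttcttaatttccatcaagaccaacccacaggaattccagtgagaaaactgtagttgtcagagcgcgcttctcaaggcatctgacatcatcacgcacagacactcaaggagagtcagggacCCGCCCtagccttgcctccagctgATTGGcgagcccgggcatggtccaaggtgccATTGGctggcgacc
Hsd17b7: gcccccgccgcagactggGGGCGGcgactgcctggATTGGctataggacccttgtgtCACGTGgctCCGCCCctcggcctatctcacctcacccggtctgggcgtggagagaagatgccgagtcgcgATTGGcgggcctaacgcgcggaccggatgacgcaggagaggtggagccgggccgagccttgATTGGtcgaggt
Cyp51: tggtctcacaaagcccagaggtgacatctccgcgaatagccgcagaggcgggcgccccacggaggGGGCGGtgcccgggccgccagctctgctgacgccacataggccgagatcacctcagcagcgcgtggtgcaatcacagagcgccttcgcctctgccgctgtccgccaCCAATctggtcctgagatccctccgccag
Elovl6: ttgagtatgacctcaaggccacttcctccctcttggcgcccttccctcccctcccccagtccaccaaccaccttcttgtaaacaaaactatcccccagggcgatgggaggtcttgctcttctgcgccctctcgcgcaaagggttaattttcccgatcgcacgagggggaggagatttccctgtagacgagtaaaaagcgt
Hmgcs1: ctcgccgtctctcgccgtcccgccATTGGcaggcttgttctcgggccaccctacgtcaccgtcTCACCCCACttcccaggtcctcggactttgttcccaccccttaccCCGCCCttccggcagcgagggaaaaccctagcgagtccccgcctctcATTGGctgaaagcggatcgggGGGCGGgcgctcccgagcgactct
Insig1: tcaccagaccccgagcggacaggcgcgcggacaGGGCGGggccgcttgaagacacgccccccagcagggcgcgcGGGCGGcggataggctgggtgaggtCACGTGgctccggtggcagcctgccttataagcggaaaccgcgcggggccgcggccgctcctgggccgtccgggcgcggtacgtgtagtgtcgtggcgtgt

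Among these stretches Msmo1 and Hsd17b7 each held 3 CCAAT matches, Idi1 and Hmgcs1 each held 2, and Cyp51 held 1. The match nearest to the start lay 55 bases before it in Msmo1, 14 in Idi1, 12 in Hsd17b7, 29 in Cyp51 and 45 in Hmgcs1. Elovl6 held none of the 4 motifs, and Insig1 held GGGCGG and CACGTG but no CCAAT in the bases shown. Over the whole 300-base windows, CCAAT was present in 23 of 35 member promoters, or 65.7%, against 37.4% of all 32851 promoters, and 2 or more copies in 34.3% against 11.7%. GGGCGG was present in 74.3% of member promoters against 35.7% of all, CACGTG in 17.1% against 7.15%, and TCACNCCAC in 2.86%, the single Hmgcs1 promoter, against 1.24%. Member promoters had a median G+C content of 62.3% against 52.7% for all, which moves with the GGGCGG share; its part in the difference was not tested. CCAAT was present in 5 of the 6 genes that were at least 0.5 below the control at 72 h and in 17 of the other 21. These 21 include Acat2, which held no CCAAT match and had no expression value here. These matches are letters in a window and say nothing about binding.

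On the arrays, 5 of 6 ERK target genes were lower than the control by at least 1 on the log2 scale at 48 h and 6 of 6 at 72 h, against 1.04% and 1.63% of genes, while the mouse Nras probe sets do not show whether the transgene was off. The brightest Nras probe set read 163, 256, 163 and 163 in time order from the control. Dusp6, a phosphatase induced by ERK, read 1706, 1338, 334 and 156 in the same order. The melanoma identity was checked with Sox10, a neural crest factor, which read 3771, 3613, 4681 and 3844. Of the 7 melanoma and melanocyte markers kept, 5 were above the control at 72 h, against 6330 of 13522 genes, and 2 below. The 5 were the pigment cell gene Pmel at 1.14, the melanocyte regulator Mitf at 0.84, S100b at 0.62, Pax3 at 0.18 and Sox10 at 0.03. The 2 below were Dct at -0.21 and Ednrb at -0.001. The pigment genes Tyr, Tyrp1 and Mlana were dim on all 4 arrays, at most 24.5, 17.9 and 25.2. The highest of the 4 array medians was 1.02 times the lowest. Markers of host cells were uneven: the summed intensity of 8 skeletal muscle markers was 294, 603, 269 and 5136 in time order, of 12 adipocyte markers 1247, 819, 1497 and 4675, of 11 macrophage markers 6155, 10496, 8402 and 15381, and of 7 fibroblast markers 15944, 16518, 34210 and 61233. The sum of 8 endothelial markers was 496, 459, 476 and 842, and all 7 that were kept were above the control at 72 h. Of the 7 fibroblast markers 1 was below the control at 72 h, Pdgfra (-0.57). Keratinocyte and sebaceous markers were between 290.4 and 312 in sum on all arrays. Of the 8 in this sum only 5 were kept, and all were dim, the brightest, Krt5, at most 78.1. The level sum therefore says little about skin content.

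The members furthest below the control at 72 h were 4 enzymes of the cholesterol route, Msmo1, Fdps, Sqle and Fdft1, followed by the fatty acid elongase Elovl6 and then Idi1, Hsd17b7, Cyp51 and Dhcr7. Ggps1, Sc5d and Ebp, of the same route, were near the control (-0.01, -0.03 and 0.06). The first 4 were also low at 48 h, and of these 4 Fdps was the furthest below at 24 h (-0.49). Differences are given as off minus on of log2(intensity + 32), which understates differences of dim genes. At 24 h none of the 33 members was lower or higher by at least 1, where 0.0666% and 0.266% of the 13522 genes kept were. At 48 h 4 members were lower by at least 1 (Msmo1, Fdps, Sqle and Fdft1), against 1.04% of all genes, and at 72 h 5 were (the same 4 and Elovl6), against 1.63%. No member was higher by at least 1 at 48 or 72 h, where 0.754% and 2.29% of genes were. With the looser limit of 0.5, 10 members were lower at 48 h and 9 at 72 h, against 4.75% and 5.52% of genes, and 1 and 2 were higher, against 4.51% and 8.32%. Of the 33, 25 lay below the control at 72 h, 7 above and 1 was equal, where 43.7% of genes lay below; the members' medians were -0.03, -0.18 and -0.24 at 24, 48 and 72 h and the median of all genes was 0.00 at each time. With the probe sets of a gene averaged, 1 member was lower by at least 1 at 48 h and 2 at 72 h, and with a pseudocount 4 times as high, 0 and 3. The shares of all genes were not computed under these settings. All comparisons with the control share the 1 control array.

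**Figure D1:**
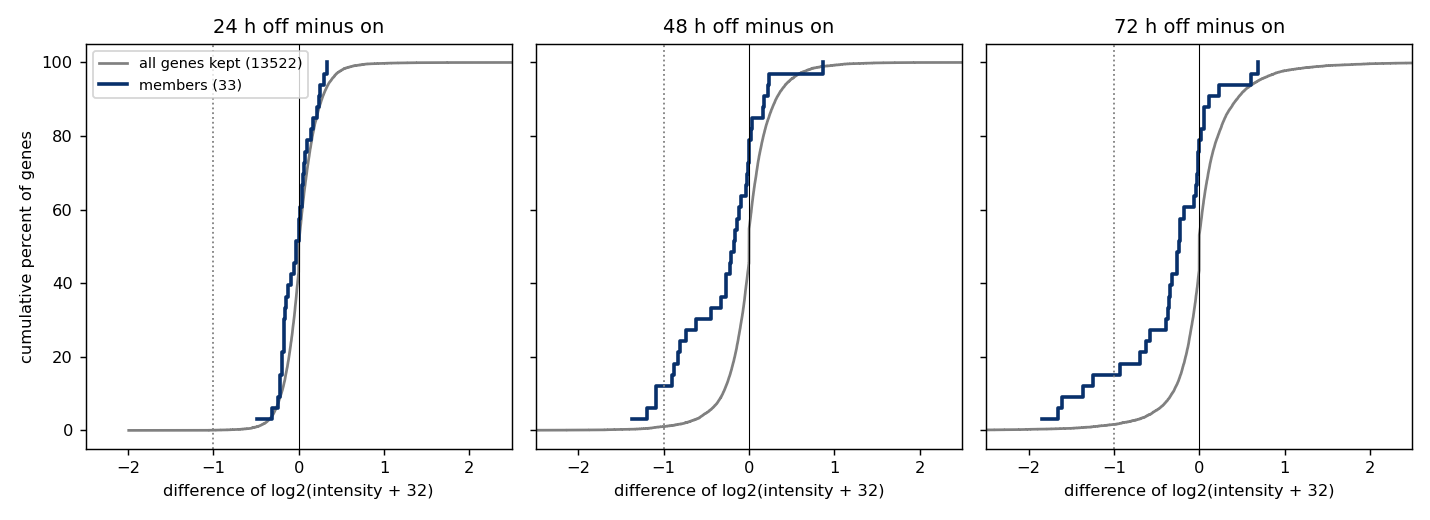
Cumulative percent of genes (vertical axis) against the difference of log2(intensity + 32) from the control array (horizontal axis) at 24, 48 and 72 h, for the 33 members and the 13522 genes kept; the dotted line marks -1. The members' curve lies close to that of all genes at 24 h and to its left at 48 and 72 h, where 4 and 5 members are beyond the dotted line.

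Leaving out the control array gave a like picture. From 24 to 72 h off doxycycline 5 members were lower by at least 1, against 1.85% of genes, and none was higher, against 1.97%; the members' median was -0.17. Most of this difference lay between 24 and 48 h, when 11 members were lower by at least 0.5, against 5.66% of genes. Between 48 and 72 h 1 member was lower by that much, against 1.48%, and 1 was higher, against 3.55%. These were Sqle, at -0.52, and Acaca, at 0.57. At 48 h, when 4 members were lower by at least 1, the muscle marker sum was 269 against 294 on the control array. The fibroblast sum was 34210 against 15944, mostly from the collagen genes Col3a1, Col1a2 and Col1a1 (13476, 9377 and 9348). The macrophage sum was 8402 against 6155. Of 7 fibroblast markers 5 were above the control at 48 h and 2 below, Pdgfra (-0.58) and Dpt (-0.26). Of 11 macrophage markers 8 were above and 3 below, Mrc1 (-0.68), Cd14 (-0.12) and Fcgr1 (-0.03). Among all genes 6125 of 13522 were above. The part of these cells in the members' values was not tested. Each value is an average over the cells of a tumour piece, in which fewer cells with a transcript and less transcript per cell cannot be told apart.

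A straight line over the 4 times was the main test. limma, fitted over all 13522 genes with 2 residual degrees of freedom, called 0 members and 0 genes at a Benjamini-Hochberg adjusted p under 0.05; the lowest adjusted p of a member was 0.241, and it ranged from 0.0863 to 0.616 over the alternatives. At an unadjusted p under 0.05 limma had 11 members with a negative slope, against 6.33% of genes, and 3 with a positive slope (Srebf1, Fads1 and Fads2), against 9.22%. The 11 were Fdps, Fdft1, Sqle, Msmo1, Idi1, Lss, Mvd, Nsdhl, Hsd17b7, Acly and Elovl6. The steepest slopes per 24 h were those of Msmo1 (-0.69 ± 0.13, SE), Sqle (-0.58 ± 0.09), Fdps (-0.57 ± 0.03) and Fdft1 (-0.50 ± 0.08). None of these slopes passed the adjusted threshold, so the lower values of these genes are a description of 4 tumours. With the 3 off arrays pooled against the control, limma had 0 members at an unadjusted p under 0.05, against 1890 of 13522 genes, and the lowest adjusted p of a member was 0.36.

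Among the regulators Srebf1 was higher at 72 h, and Scap and Insig2 stayed near the control on their brightest probe sets. Srebf2 and the dim Insig1 were highest at 24 h and lowest at 72 h. Srebf1 encodes the SREBP that mainly drives fatty acid genes and is itself a target of the sterol-sensing LXR receptors. It read 574, 635, 673 and 892 on the control, 24, 48 and 72 h arrays, a difference of 0.61 at the last time. The control was its lowest array and 72 h its highest. Srebf2, whose product mainly drives cholesterol genes, read 203, 244, 198 and 169, with differences of 0.23, -0.03 and -0.22. A second Srebf2 probe set of like brightness read 172, 265, 117 and 80.4, with differences of 0.54, -0.45 and -0.86, so the size of the later difference depends on the probe set, although both were highest at 24 h and lowest at 72 h. Scap, the escort of SREBPs to the Golgi, read 332, 346, 298 and 323. Insig1, the sterol-dependent anchor and itself an SREBP target, was dim, at 34.4, 49.7, 25.3 and 23.3, highest at 24 h. Its relative Insig2, not an SREBP target in most tissues, read 131, 127, 127 and 125.

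**Figure D2:**
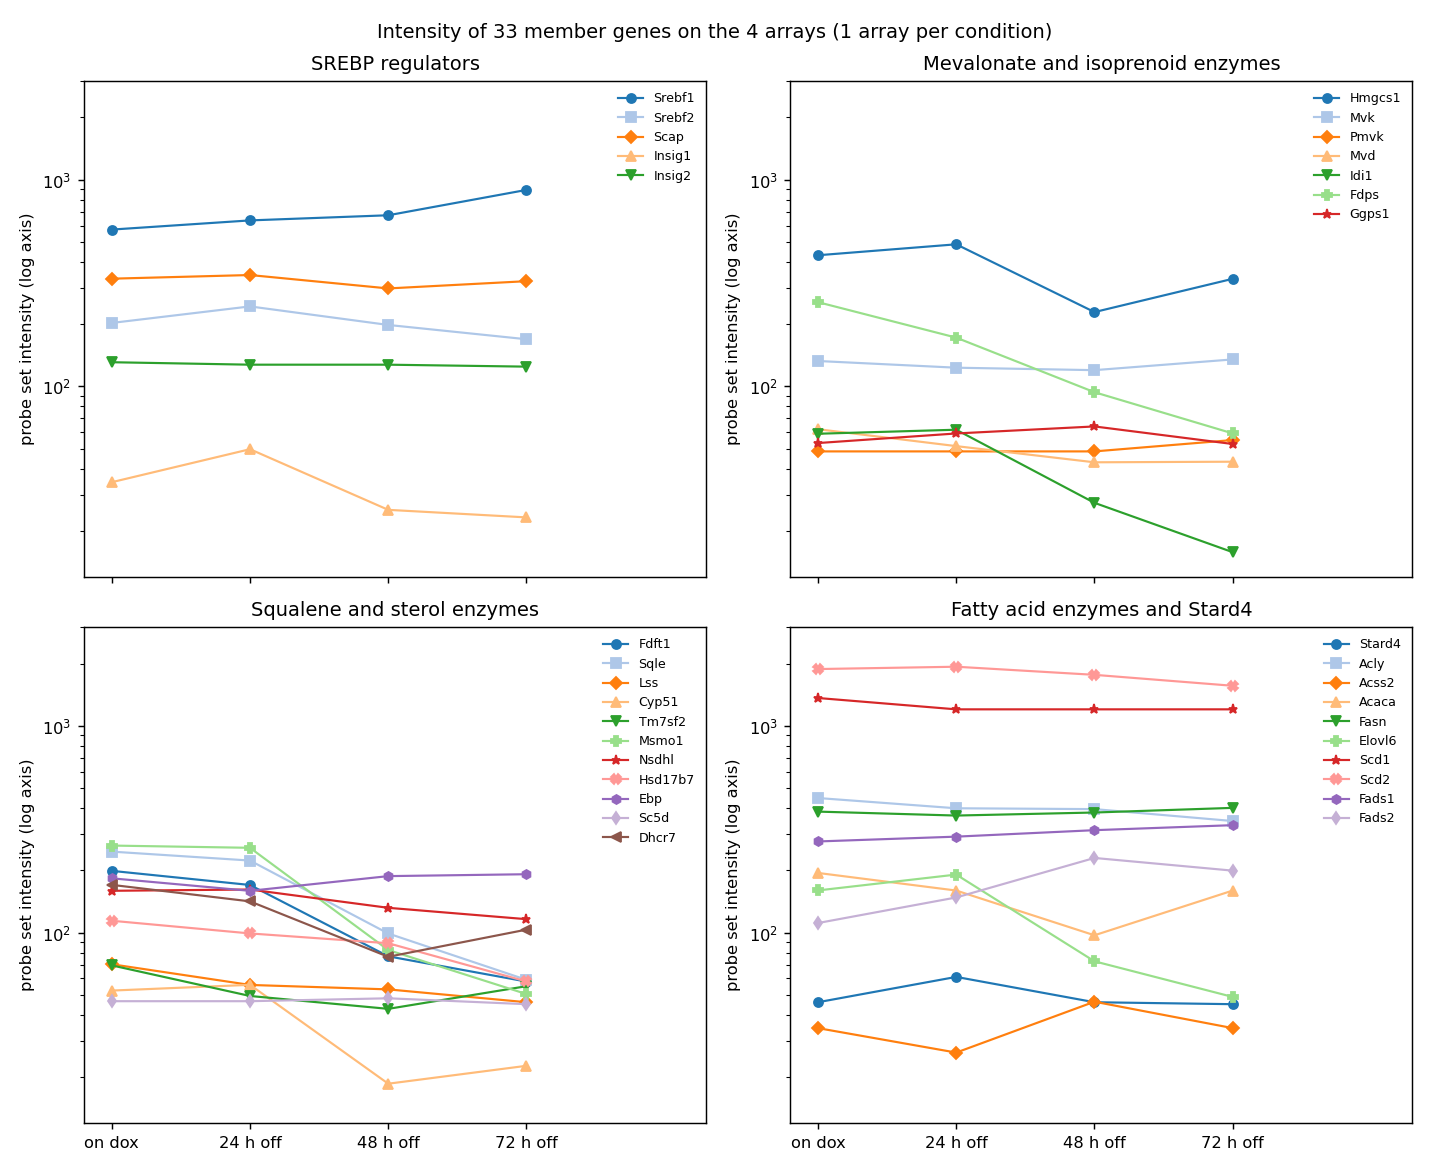
Intensity (log axis) of the brightest probe set of each of the 33 members on the 4 arrays, in 4 panels by role; each point is 1 array, with no error bars because no condition was replicated. Fdps, Sqle, Fdft1, Msmo1, Idi1 and Elovl6 slope down after 24 h, whereas Scd1, Scd2 and Fasn stay nearly level and Srebf1 and Fads2 are higher late.

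In the mevalonate and isoprenoid group Fdps and Idi1 were lower at the end, while Mvk, Pmvk and Ggps1 were near the control. Fdps makes farnesyl diphosphate, the branch point to sterols and to prenyl groups. It read 256, 172, 93.8 and 59.3 in time order, lower on each later array, with differences of -0.49, -1.19 and -1.66. It was the only enzyme of the set already below -0.4 at 24 h. Idi1, which isomerises isopentenyl diphosphate just before that step, read 59.0, 61.8, 27.4 and 15.8, with differences of 0.04, -0.62 and -0.93. Its 72 h intensity is below the level filter of 24.9, and the size of that difference is limited by the signal over background. Hmgcs1, the synthase that commits acetyl-CoA to this route, read 431, 487, 229 and 332. Its other 3 probe sets above the filter were also lower at 72 h than on doxycycline, from -0.64 to -0.35, but 2 of them had their lowest value at 72 h and not at 48 h, so the time of the minimum depends on the probe set. Mvd, the decarboxylase, read 62.1, 51.4, 43.0 and 43.2, with differences of -0.33 at 48 h and -0.32 at 72 h. The kinases Mvk and Pmvk and the geranylgeranyl diphosphate synthase Ggps1 were between -0.01 and 0.11 at 72 h, and 3 other Ggps1 probe sets were higher, from 0.20 to 0.36.

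Of the squalene and sterol enzymes 10 of 11 were below the control at 72 h and 3 were lower by at least 1, against 43.7% and 1.63% of genes. The group's median difference was -0.16, -0.44 and -0.58 at 24, 48 and 72 h, against 0.00 for all genes. Msmo1, a methylsterol oxidase, showed the greatest difference of all members. It read 263, 257, 82.3 and 50.4 in time order, close to the control at 24 h and then lower by 1.37 and 1.84 on the log2 scale. Sqle, squalene epoxidase, a rate-limiting step, read 246, 223, 98.9 and 59.0, with differences of -0.13, -1.09 and -1.61. Fdft1, squalene synthase, read 199, 170, 76.7 and 57.9, with differences of -0.19, -1.09 and -1.36. These 3 genes shared one course, near the control at 24 h and lowest at 72 h. A second Fdft1 probe set was at -1.22 at 72 h, but the other two, dimmer, were at -0.18 and 0.00.

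Dhcr7 was lowest at 48 h instead. This last reductase of the route read 170, 141, 76.3 and 103, with differences of -0.22, -0.90 and -0.58. Cyp51, the lanosterol demethylase, read 52.4, 55.9, 18.6 and 22.7, below the level filter at 48 and 72 h, so these later values have no order. Hsd17b7, a ketosteroid reductase, read 114, 99.0, 88.8 and 58.0, with differences of -0.16 and -0.27 at 24 and 48 h; its other 3 probe sets lay between -0.31 and 0.05 at 72 h, so its 72 h difference of -0.70 rests on the brightest. Lss, lanosterol synthase, was at -0.39 at 72 h and the dehydrogenase Nsdhl at -0.37, each with its lowest value there. Tm7sf2, a sterol reductase, read 69.4, 49.3, 42.7 and 55.0, lowest at 48 h. Ebp, an isomerase, and Sc5d, a desaturase, stayed within 0.2 of the control at all 3 times. Stard4, a carrier that moves cholesterol between membranes, had equal values on the control and 48 h arrays (46.0), was higher at 24 h (61.0) and differed by -0.02 at 72 h.

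**Figure D3:**
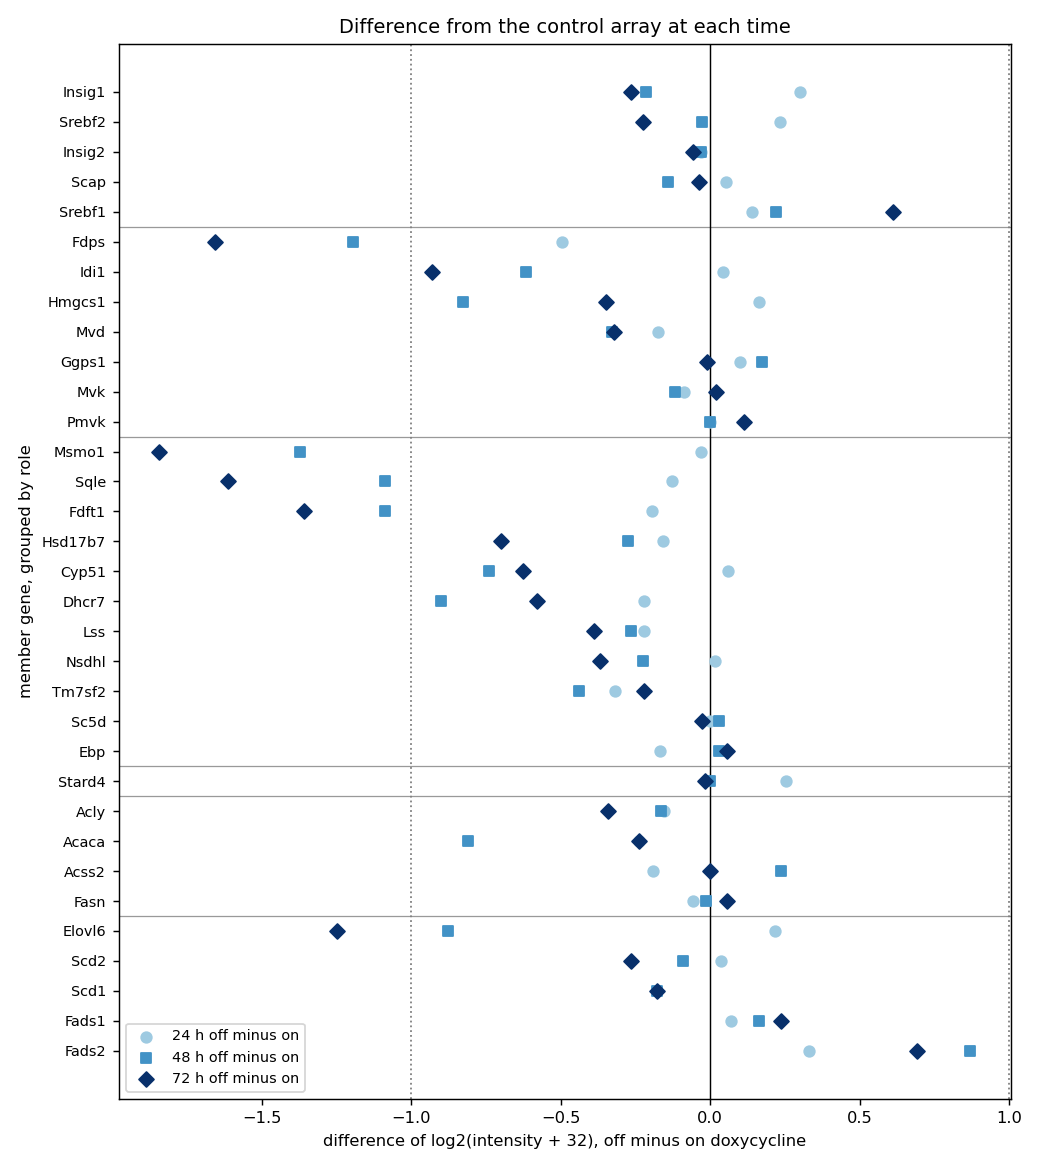
Difference of log2(intensity + 32) from the control array (horizontal axis) for each of the 33 members (vertical axis, grouped by role) at 24 h (circles), 48 h (squares) and 72 h (diamonds); dotted lines mark -1 and 1. The diamonds of Msmo1, Fdps, Sqle, Fdft1 and Elovl6 are left of -1, and Fads2 and Srebf1 are the furthest right.

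Fatty acid synthesis genes did not share this course. Fasn, fatty acid synthase, read 384 on doxycycline and 368, 381 and 401 at 24, 48 and 72 h, all within 0.06 of the control on the log2 scale. Acly, which makes cytosolic acetyl-CoA from citrate, read 447, 399, 395 and 346, and its other 2 probe sets above the filter were at -0.30 and -0.05 at 72 h. Acaca, the carboxylase that makes malonyl-CoA, read 194, 160, 97.0 and 160, lowest at 48 h (-0.81) and at -0.24 at both other times. Its other probe set above the filter was dim and nearly level, at 32.1, 32.1, 33.8 and 32.1. Acss2, which makes acetyl-CoA from acetate, was dim and had equal values on the control and 72 h arrays. The median difference of the 9 fatty acid genes was -0.06, -0.09 and -0.18, against -0.11, -0.38 and -0.38 for the 18 cholesterol enzymes; whether the routes differ was not tested. Adipocytes express Fasn, Scd1, Acly and Acaca strongly, and 5 of 10 adipocyte markers were higher by at least 1 at 72 h, against 2.29% of genes (Adipoq read 64.0, 15.6, 58.9 and 352). At 48 h 0 of 10 were, and 2, Lpl (0.83) and Fabp4 (0.59), were higher by at least 0.5, against 4.51% of genes. All 10 were below the control at 24 h, against 5816 of 13522 genes. At 48 h 6 of 10 were below, against 6147 of 13522 genes, with a list median of -0.02. At 72 h 2 were below, Cidea (-0.19) and Retn (-0.07), against 43.7% of genes. The part of adipocytes in the values of Fasn, Scd1, Acly and Acaca was not tested.

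Elongation and desaturation genes went in different directions. Elovl6, which elongates palmitate, read 160, 191, 72.6 and 48.8, with differences of 0.22, -0.88 and -1.25, a course like that of Msmo1 and Sqle. A second, dimmer Elovl6 probe set was at -0.39 at 72 h. Fads2, the first desaturase of polyunsaturated fatty acids, read 111, 148, 229 and 199, higher than the control on every later array by 0.33, 0.87 and 0.69. A second Fads2 probe set of like brightness read 139, 186, 201 and 161 and was at only 0.17 at 72 h. The third, dimmer, was at -0.17 at 24 h and 0.16 at 72 h, so the size for Fads2 depends on the probe set. Fads1, the next desaturase, read 276, 291, 313 and 331. The stearoyl-CoA desaturases, which make oleate, were within 0.3 of the control on their brightest probe sets: Scd1 read 1362 and then exactly 1201 on each off array, and Scd2 read 1881, 1930, 1763 and 1561. The other 2 Scd2 probe sets above the filter were at 0.21 and 0.82 at 48 h and at -0.61 and -1.04 at 72 h, so the size for Scd2 depends on the probe set. Exact equality between arrays came with the deposited values; it occurred in 7 members and 36.8% of all genes.

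**Figure D4:**
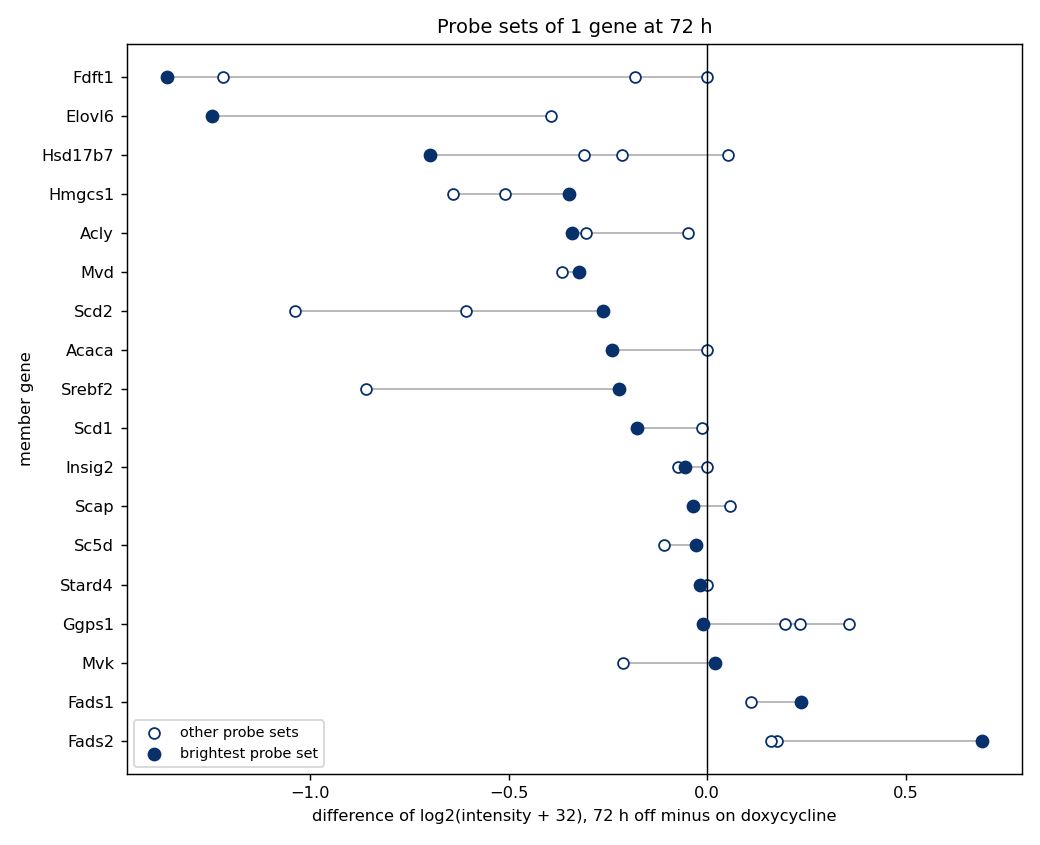
Difference of log2(intensity + 32) at 72 h off minus on (horizontal axis) for every probe set above the level filter of the 18 members with more than 1 (vertical axis); filled points are the brightest probe sets and open points the others. In 10 of the 18 members all probe sets lie on the same side of 0, and in 12 they lie within 0.5 of each other; Fdft1 has the widest range, from -1.36 to 0.00.

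Other genes of the SREBP pathway were mixed. Of 23 listed, 18 were measured, and 2 of these were lower by at least 1 at 72 h, against 1.63% of genes, and none higher, against 2.29%. Fads3, a desaturase relative, read 1182, 1203, 594 and 286, with other probe sets at -0.82 and -0.68 at 72 h. Mid1ip1, which promotes acetyl-CoA carboxylase polymerisation, read 860.4, 761, 455 and 307. Lpin1, a phosphatidate phosphatase, was highest at 48 h (101, 136, 229 and 161), although its other probe set was at 0.05 at both later times. Mbtps1, a protease that releases SREBPs, read 432, 516, 579 and 617, and Tmem97, a sterol-regulated membrane protein, 79.6, 96.9, 55.9 and 60.8. The list's median was 0.07, -0.04 and -0.13.

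Genes that use isoprenoids had no common direction, with 5 of 9 measured genes below the control at 72 h, near the 43.7% of all genes, and none past 1. Rabggtb, a subunit of the enzyme that prenylates RAB proteins, read 507, 467, 339 and 270.1. The farnesyltransferase subunits, which attach farnesyl to RAS, parted: Fnta read 721, 770 and then 1124 and 1216, while Fntb read 259, 303, 184 and 159. Pggt1b, a prenyltransferase subunit, was highest at 24 h (65.0, 107, 93.8 and 94.3), and Nus1, of dolichol synthesis, lowest at 48 h (454, 437, 255 and 331). Fnta, Pggt1b and Nus1 have further probe sets, which were not examined, so their courses rest on the brightest.

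Of 12 sterol export and storage genes measured, 9 were above the control at 72 h, against 6330 of 13522 genes, and 3 below it, the LXR gene Nr1h3 (-0.04), the lysosomal carrier Npc2 (-0.17) and the hydroxylase Ch25h (-0.02). In this list 3 were higher by at least 1 and 7 by at least 0.5, against 2.29% and 8.32% of genes, with a median of 0.64. Abca1, which pumps cholesterol to apolipoproteins and is induced by LXR, read 272, 289, 758 and 1362 in time order. It was near the control at 24 h and then higher by 1.38 and 2.20, and its other 2 probe sets were at 1.83 and 1.02 at 72 h. Mylip, an LXR-induced ligase for lipoprotein receptors, read 135, 176, 235 and 326. Lipa, the lysosomal esterase, read 278, 294, 404 and 498, the exporter Abcg1 216, 148, 242 and 367, and the lipoprotein Apoe 3857, 3341, 3716 and 7615. Abca1, Mylip and Lipa were above the control at both later times, whereas Abcg1 and Apoe stood out at 72 h. Macrophages express these genes, and 10 of 11 macrophage markers were above the control at 72 h, against 6330 of 13522 genes (Csf1r read 708, 1103, 837 and 2318); their part was not tested. In the limma line fit 0 of the 12 passed an adjusted p of 0.05, and 5 had an unadjusted p under 0.05, all with a positive slope, against 9.22% of genes.

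**Figure D5:**
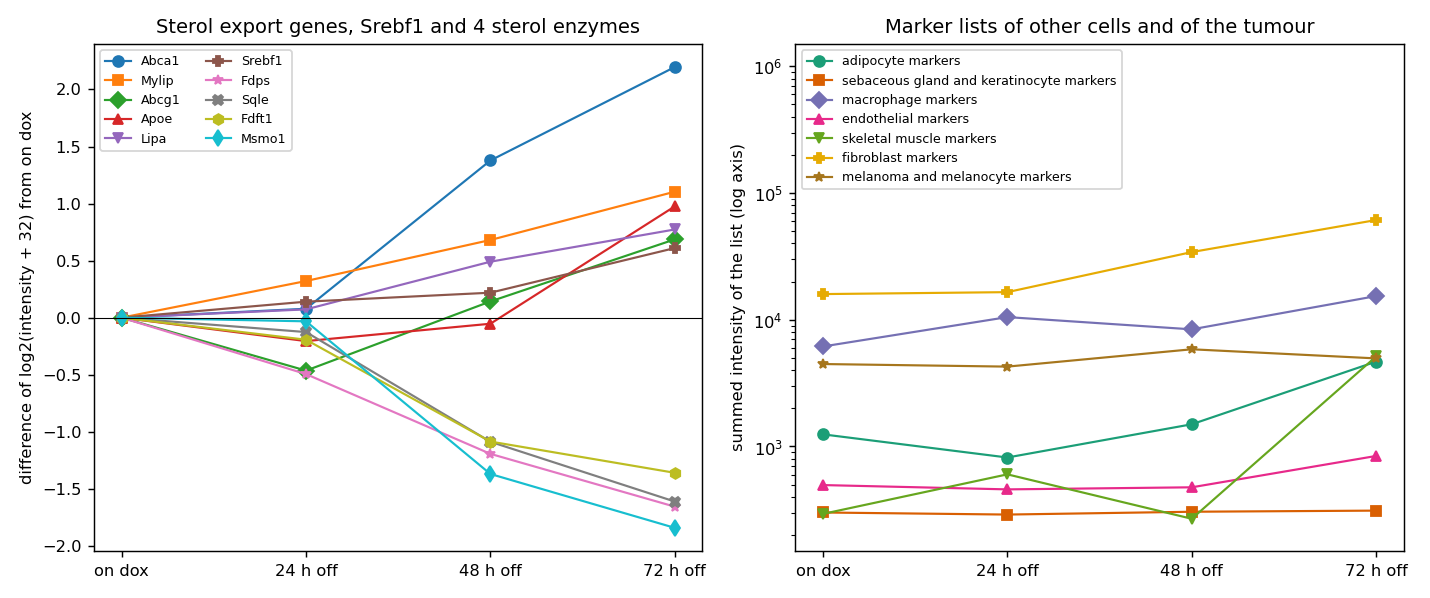
Left, difference of log2(intensity + 32) from the control array for 5 sterol export and storage genes, Srebf1 and 4 sterol enzymes on each array; right, summed intensity (log axis) of 7 marker lists on each array. Abca1 reaches 2.20 and Msmo1 -1.84 at 72 h, the array on which the skeletal muscle sum is 5136 and the macrophage sum 15381.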

How the data were processed

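RNA from 4 tumours was measured on Affymetrix mouse arrays. Per the labels' protocols, a piece of about 50 mg per tumour was extracted with Trizol and 10 ug of total RNA was labelled with biotin as cRNA. The deposited values are linear intensities, 1 per probe set; MAS5 and RMA appear in the submitters' processing notes without a role, so how the values were scaled is not stated there, and no detection calls were used here. Of 45037 probe sets, 34945 had 1 gene symbol in the platform annotation, 932 had several and 9160 were not listed; only the first kind was used. The probe set with the highest mean over the arrays stood for a gene, and genes whose mean reached 24.9, the 40th percentile over probe sets, were kept, 13522 in all, among them 33 of 33 measured members, of which 30 reached it on all 4 arrays. The log2 of the deposited intensity plus a pseudocount of 32 was compared between arrays. limma 3.58.1 in R 4.3.3 (eBayes with an intensity trend) fitted a line over hours, with Benjamini-Hochberg adjustment over all genes, and was tested on simulated data. Motifs were searched with Python 3.11.15. Alternatives were quantile normalization, median centring, pseudocounts of 8 and of 4 times 32, averaging of a gene's probe sets, omission of the _x_at and _s_at probe sets, no level filter or the 60th percentile, limma without trend, the off arrays pooled, and each array left out; a fit without tied genes and values without a pseudocount were chosen after the data had been seen. All members were described; values on every array are given for regulators, members with a 72 h difference of at least 0.5 and those unlike their group, and of each further list for up to 5 genes with the greatest mean difference. Members and lists were chosen with earlier results of these data known.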

Additional observations from a re-analysis of the deposited data

How the results depend on the processing

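No paired analysis was possible because each condition has 1 array. The number of members lower by at least 1 depended on the pseudocount and the probe set rule. At 48 h it was 4, and 7 with a pseudocount of 8, 9 with none, 0 with 4 times 32 and 1 with the mean over probe sets; with no pseudocount 1 member was also higher. At 72 h it was 5, and 3 with the larger pseudocount and 2 with the mean. From 24 to 72 h it was 5, and 8 with no pseudocount, 1 with the larger one and 1 with the mean. The share of all genes past the same limit was computed only under the main setting. The counts under the alternatives therefore have no background beside them. Medians moved by more than 1.5 times at 72 h with the larger pseudocount (-0.15) and from 24 to 72 h with it (-0.079) or the mean (-0.10). The other 111 of 124 values, counts and medians were within 1.5 times, or within 0.1 of 0, and no direction turned. Of 132 values of single members at 72 h under the alternatives, 27 moved by more than that; 1 of the 132 turned sign, Scap, from -0.036 to 0.010 with the mean over probe sets. With limma the count of members at an adjusted p under 0.05 was 0 under each alternative and 0 without each array; the lowest adjusted p was 0.241 with all genes and 0.0863 with tied genes left out. With all 4 arrays 14 members and 2103 of 13522 genes had an unadjusted p under 0.05. These counts were 7 and 1046 without the 72 h array, 7 and 1699 without the control, 9 and 1989 without the 24 h array, 9 and 1443 without the 48 h array, and 0 and 1890 with the off arrays pooled. Idi1, Cyp51 and Insig1 lay below the level filter on at least 1 array, and their differences there are limited by signal over background.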

Other observations

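The Scd2 probe sets parted by time. The brightest read 1881, 1930, 1763 and 1561 on the control, 24 h, 48 h and 72 h arrays, the next 897, 872, 1046 and 577, and the dimmest 122, 167, 240 and 42.9. The dimmest was thus highest at 48 h, at 0.82 above the control, and lowest at 72 h, at -1.04. For all 3 the 72 h array was the lowest. Of the 33 members, 13 had their single highest value on the control array, 10 at 24 h, 4 at 48 h and 6 at 72 h. The 10 members highest at 24 h were Srebf2, Scap, Insig1, Hmgcs1, Idi1, Cyp51, Nsdhl, Stard4, Elovl6 and Scd2. The same counts were not made over all genes, so they are not a trait of the set.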
